A study of Mus musculus with 11 samples.

Results

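The Zfp genes are the mouse genes whose symbol is Zfp followed by a number. Members were taken from probe sets that carry exactly 1 gene symbol of that form. Zfp36 was left out because it encodes an mRNA-binding protein with another type of finger. The probe set with the highest mean was used where a gene had several. Of 312 Zfp genes measured, 224 had a mean of at least 6 on the log2 scale over the 4 untreated arrays and are described here, among 18755 genes in all. The members were therefore chosen on their untreated level, and the other 88 Zfp genes lay below that level.

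Transcript levels came from Affymetrix whole-transcript mouse arrays hybridised with RNA of C57Bl/6 macrophages, which were derived in culture from marrow precursors. The cells were cultured with 5 ng/ml M-CSF, the growth factor that drives macrophage differentiation, and were used 24 h after replating. They were left untreated (4 arrays), treated for 1 h with 100 ng/ml LPS (3 arrays), or treated for 1 h with 100 ng/ml LPS and 10 µM PGE (4 arrays). LPS is a bacterial cell wall component that activates Toll-like receptor 4, and PGE is a prostaglandin whose EP2 and EP4 receptors raise cyclic AMP. The study did not include PGE alone, so LPS+PGE minus LPS is an effect of PGE in the presence of LPS only. The labels do not say whether the replicates were separate mice or separate cultures, so p-values measure only the spread between these samples.

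Most proteins of this family carry long arrays of C2H2 fingers, each a small zinc-bound fold that contacts a few bases of DNA, so that the array as a whole reads a longer site. Many also carry a KRAB box at the amino end, which recruits Trim28 (KAP1) and through it the histone methyltransferase Setdb1 and HP1 proteins. KRAB zinc finger genes lie in clusters that grew by duplication, and their best known targets are retroviral and other transposable elements. A smaller number of Zfp genes encode transcription factors without a KRAB box, or proteins that act on RNA, ribosomes or the spindle.

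Members were expressed at low to moderate levels. The untreated level of the 224 members ran from 6.01 to 11.79, with a median of 7.40, whereas the 9086 non-Zfp genes above the same floor had a median of 8.82. Zfp882 (6.01), Zfp784 (6.03) and Zfp94 (6.03) lay just inside the floor, and Zfp54 (5.95), Zfp974 (5.95) and Zfp772 (5.99) just outside it. Every member was still above the lower quartile of all genes (3.80 to 4.05 across the arrays) in each group mean. At 1 h of LPS 178 members had a mean of at least 6, and with LPS+PGE 153 did.

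The median member was lower in every treated array than in every untreated one. The median over the 224 members was 7.37 to 7.50 in the 4 untreated arrays, 6.88 to 7.05 in the 3 LPS arrays and 6.60 to 6.72 in the 4 LPS+PGE arrays. The 3 groups did not overlap. The corresponding group means were 7.43 ± 0.056 (SD, n = 4), 6.97 ± 0.084 (SD, n = 3) and 6.65 ± 0.055 (SD, n = 4). The non-Zfp genes above the floor had mean array medians of 8.82, 8.86 and 8.75 in the same order. These are differences in amount of transcript per unit of total RNA, and in a culture fewer cells of one kind and less RNA per cell cannot be told apart.

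The LPS response and the cell type were checked first. Tnf rose by 4.51 ± 0.07 (log2 change ± SE), Il1b by 6.87 ± 0.15 and Nfkbia by 3.13 ± 0.06 with LPS, and Zfp36, left out of the members, rose by 2.05 ± 0.10. All 9 macrophage markers measured were above the floor in untreated cells (9.69 to 13.06). Among markers of other cells, 1 of 4 neutrophil, 1 of 4 T cell and 1 of 3 dendritic cell genes reached the floor, and none of the B cell, mast cell, erythroid or stromal genes did. Their summed levels were 19.4 to 19.8, 19.0 to 20.4 and 19.3 to 20.2 for the neutrophil list in untreated, LPS and LPS+PGE arrays, and 18.9 to 19.3, 18.8 to 19.5 and 18.6 to 19.4 for the T cell list. The dendritic cell list summed to 14.6 to 15.2, 15.2 to 16.1 and 15.2 to 16.0, and the stromal list to 14.9 to 15.2, 14.6 to 15.2 and 15.2 to 16.0. The part of other cells in the changes of the members was not tested.

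The question in the first comparison is what 1 h of LPS does to this family. With LPS, falls among the expressed Zfp genes far outnumbered rises. In the limma fit over all genes, with Benjamini-Hochberg adjustment and a threshold of 0.05, 119 of the 224 members fell, 11 rose and 94 were not called, beside 6.69% of all 18755 genes that fell and 6.55% that rose. The median change of the members was -0.39 on the log2 scale (76.5% of the untreated signal), with quartiles of -0.67 and -0.07 and a range of -1.82 to 2.05. The median over all genes was -0.01. A fall of at least 2-fold was found for 24 members, beside 0.363% of all genes, and a rise of at least 2-fold for 3 members, beside 1.57% of all genes. The LPS arrays lay wholly below the untreated arrays for 133 members, beside 12.6% of all genes.

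The same untreated arrays set the level floor, so the counts above are a description, and the floor was also set on other arrays than those compared. When members were chosen on untreated replicates 1 and 2 (219 genes) and compared with replicates 3 and 4, 88 fell with LPS in the limma fit, beside 3.69% of all genes in that fit, and the median change was -0.40. With the choice on replicates 3 and 4 (223 genes) and the comparison with replicates 1 and 2, 87 fell, beside 3.81% of all genes, and the median change was -0.38. Both medians lay close to the -0.39 found with all 4 untreated arrays. Of the 88 Zfp genes below the floor, 25 fell and 2 rose with LPS, with a median of -0.14.

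Non-Zfp genes of the same untreated level had a median change near 0. Non-Zfp genes were placed in bins of 0.5 log2 units of untreated level, and each bin was weighted by the number of Zfp members in it. In these bins 11.2% of the non-Zfp genes fell and 12.2% rose with LPS, with a median change of 0.01, against 119 of 224 members and a median of -0.39. The median of the members was the lower one in 10 of 10 bins, and 182 members lay below the median of their bin. The median fall was larger among dimmer members, a description without a test. The median change was -0.56 for the 38 members at 6 to 6.5, -0.62 for 38 at 6.5 to 7 and -0.55 for 41 at 7 to 7.5, and -0.13 for 37 at 7.5 to 8 and -0.26 for 32 at 8 to 8.5. The non-Zfp genes of those bins had medians of 0.05, 0.03, 0.01, 0.01 and -0.01.

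**Figure D1:**
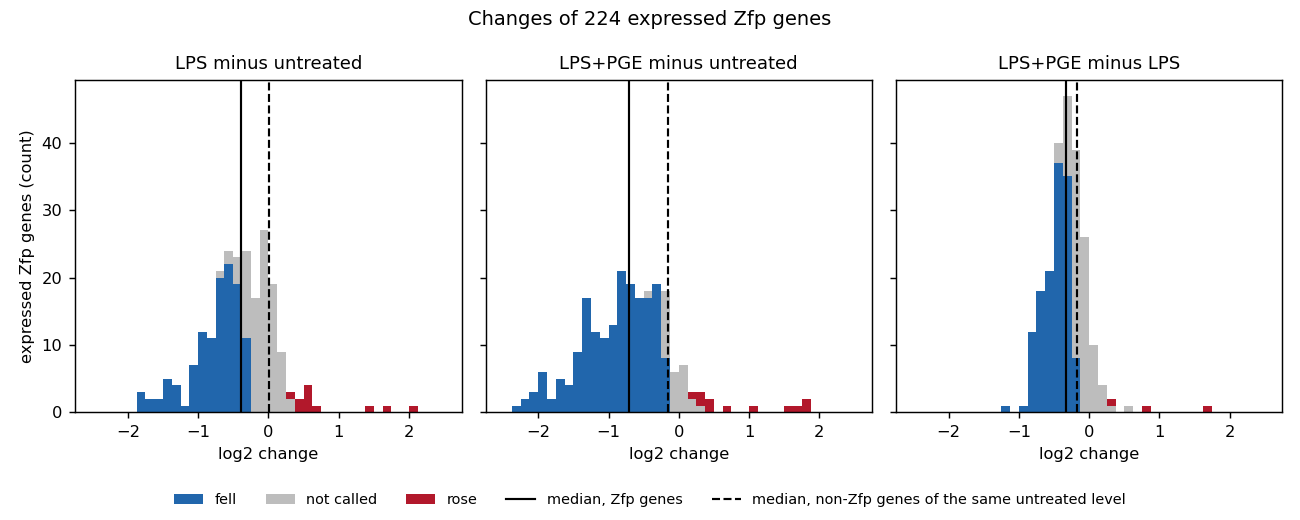
Number of expressed Zfp genes (vertical axis) by log2 change (horizontal axis) in the 3 comparisons, coloured by call in the limma fit. The solid line is the members' median and the dashed line the median of non-Zfp genes of the same untreated level: -0.39 and 0.01 for LPS minus untreated, -0.71 and -0.15 for LPS+PGE minus untreated, and -0.32 and -0.17 for LPS+PGE minus LPS.

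**Figure D2:**
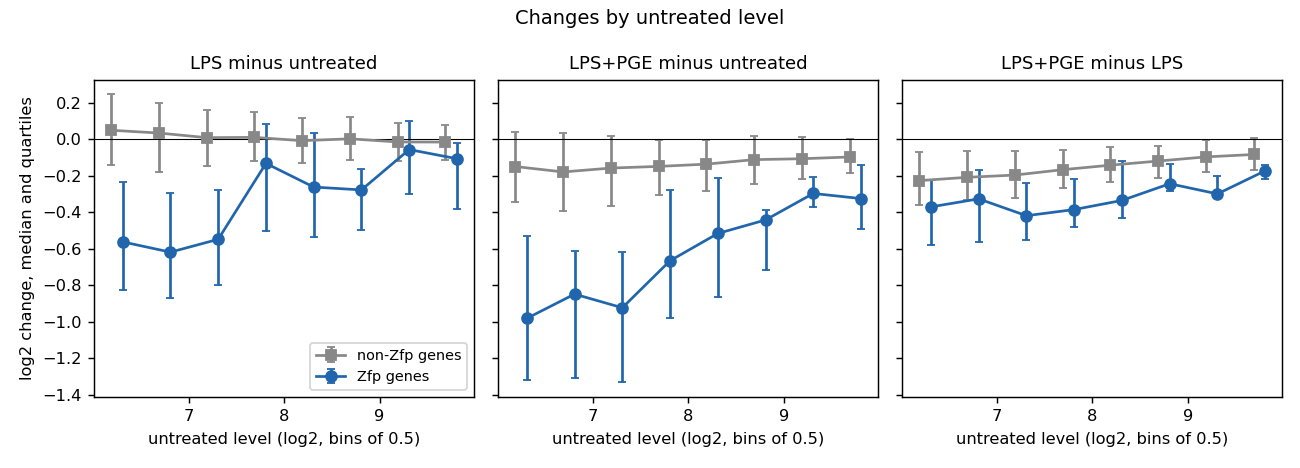
Median log2 change with quartiles (bars) by untreated level, for Zfp members (circles) and non-Zfp genes (squares), in bins of 0.5 log2 units with at least 8 members. The Zfp median lies below the non-Zfp median in each bin drawn, and with LPS the gap is widest below a level of 7.5.

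The steepest measured falls with LPS were those of Zfp870, Zfp39, Zfp763, Zfp273 and Zfp128. Zfp39 was at 7.47, 7.39, 7.26 and 7.39 in the untreated arrays, 5.42, 5.61 and 5.71 with LPS, and 5.47, 5.44, 5.12 and 5.71 with LPS+PGE. The treated arrays lay wholly below the untreated ones, and the LPS and LPS+PGE arrays overlapped. Zfp39 fell by 1.80 ± 0.12 with LPS (3.48-fold lower, limma adjusted p = 4.82e-07), and its difference between LPS+PGE and LPS was -0.15 ± 0.12 (adjusted p = 0.386).

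Zfp273, the brightest of these 5 in untreated cells, followed another course. It was at 8.44, 8.34, 8.39 and 8.45 untreated, 6.93, 6.38 and 6.76 with LPS, and 6.05, 6.32, 6.20 and 6.17 with LPS+PGE. Here all 3 groups were apart. It fell by 1.72 ± 0.11 with LPS (limma adjusted p = 3.62e-07) and lay another 0.51 ± 0.11 lower with LPS+PGE than with LPS (adjusted p = 0.00813), a call lost under quantile normalization (adjusted p = 0.0668). A dimmer further probe set of Zfp273 gave -1.58 for LPS minus untreated.

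Zfp870 was at 6.63, 6.06, 6.28 and 6.44 untreated, 4.56, 4.27 and 4.78 with LPS and 4.51, 4.56, 4.61 and 4.13 with LPS+PGE, and it fell by 1.82 ± 0.16 with LPS (limma adjusted p = 6.34e-06). Zfp763 was at 6.17, 5.72, 6.34 and 6.24 untreated, 4.31, 4.25 and 4.45 with LPS, and 4.09, 4.25, 3.91 and 4.04 with LPS+PGE, a fall of 1.78 ± 0.13 with LPS (adjusted p = 1.58e-06). Zfp128 was at 6.92, 6.81, 6.76 and 7.15 untreated, 5.26, 5.22 and 5.10 with LPS, and 4.68, 5.18, 5.21 and 4.89 with LPS+PGE, a fall of 1.72 ± 0.13 (adjusted p = 1.83e-06). None of these 3 was called between LPS+PGE and LPS in the deposited values, with adjusted p of 0.722, 0.156 and 0.271, although under quantile normalization Zfp763 fell there (adjusted p = 0.0348). Zfp763 and Zfp870, and Zfp760 among the next 7, had LPS means below 5, and their folds may be lower bounds.

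The other 7 of the 12 largest falls with LPS were Zfp418 (-1.52), Zfp72 (-1.51), Zfp189 (-1.42), Zfp760 (-1.41), Zfp455 (-1.39), Zfp324 (-1.39) and Zfp553 (-1.38), each with arrays that did not overlap those of untreated cells. Zfp324 was at 6.96, 6.93, 7.02 and 7.03 untreated, at 5.59, 5.58 and 5.63 with LPS and at 5.95, 5.77, 5.72 and 5.38 with LPS+PGE. It is the only one of these 12 whose LPS+PGE mean lay above its LPS mean, by 0.10 ± 0.11, which was not called (limma adjusted p = 0.491). In Zfp455 the LPS arrays themselves were spread, at 6.79, 5.48 and 6.75, the lowest of which reached the LPS+PGE arrays at 5.33 to 5.71.

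The promoters of members from both ends of the response are shown so that their base composition can be compared. Each window is the RefSeq sequence on assembly GRCm38.p6 from 250 bases before to 50 bases after a gene's start, printed 5′ to 3′ on the strand of the gene in lower case. Capitals mark ACTACA, or the longer word made of ACTACA followed directly by ATTCC where it is present, both of which lie on the opposite strand in the windows printed. Zfp39, Zfp273 and Zfp128 are among the 5 largest falls with LPS, and Zfp128 was picked because its window holds the longer word.
Zfp39 (chr11:58904176-58904475, minus strand): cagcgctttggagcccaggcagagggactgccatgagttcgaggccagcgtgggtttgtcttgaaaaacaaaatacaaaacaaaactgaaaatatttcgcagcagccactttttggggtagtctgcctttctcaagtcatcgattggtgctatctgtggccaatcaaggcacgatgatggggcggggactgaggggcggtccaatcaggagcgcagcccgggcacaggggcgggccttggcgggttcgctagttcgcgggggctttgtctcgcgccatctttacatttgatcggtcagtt
Zfp273 (chr13:67813566-67813865, plus strand): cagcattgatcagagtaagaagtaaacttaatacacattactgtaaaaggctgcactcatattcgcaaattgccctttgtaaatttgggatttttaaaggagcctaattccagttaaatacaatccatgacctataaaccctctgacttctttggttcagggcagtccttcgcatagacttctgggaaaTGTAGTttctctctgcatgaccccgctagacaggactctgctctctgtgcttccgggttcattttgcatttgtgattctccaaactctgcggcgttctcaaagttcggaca
Zfp128 (chr7:12880928-12881227, plus strand): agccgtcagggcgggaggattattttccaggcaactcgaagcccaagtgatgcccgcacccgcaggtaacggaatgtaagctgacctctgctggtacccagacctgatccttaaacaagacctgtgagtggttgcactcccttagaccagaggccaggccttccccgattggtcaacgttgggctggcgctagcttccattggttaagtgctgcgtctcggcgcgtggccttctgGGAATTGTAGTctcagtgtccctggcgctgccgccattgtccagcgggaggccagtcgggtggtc
Zfp719 and Zfp263 are 2 of the 3 members that rose at least 2-fold with LPS.
Zfp719 (chr7:43579336-43579635, plus strand): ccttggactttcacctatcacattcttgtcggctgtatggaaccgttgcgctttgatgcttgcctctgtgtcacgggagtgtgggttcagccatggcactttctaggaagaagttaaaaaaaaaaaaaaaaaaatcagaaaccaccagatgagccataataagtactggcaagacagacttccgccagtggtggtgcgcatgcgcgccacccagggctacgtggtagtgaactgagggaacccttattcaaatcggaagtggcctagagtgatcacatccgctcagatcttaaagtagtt
Zfp263 (chr16:3743849-3744148, plus strand): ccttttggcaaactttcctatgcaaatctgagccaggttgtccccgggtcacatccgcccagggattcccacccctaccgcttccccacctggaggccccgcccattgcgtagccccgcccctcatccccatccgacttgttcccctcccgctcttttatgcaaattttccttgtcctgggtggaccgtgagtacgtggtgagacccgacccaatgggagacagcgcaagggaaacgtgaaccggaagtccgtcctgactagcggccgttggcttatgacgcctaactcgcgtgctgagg

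The Zfp39 window holds 18 CpG dinucleotides, that of Zfp273 holds 7, that of Zfp128 holds 17, that of Zfp719 holds 11 and that of Zfp263 holds 20. The window of Zfp763, which fell more with LPS than Zfp273 and Zfp128, is not printed and holds 9 and no ACTACA. These few windows did not separate by CpG count. Over all members with a window (186 of 224), the median CpG count was 16, between 23 for 7457 non-Zfp genes above the floor and 8 for all 27025 genes in the table. The 103 members that fell with LPS had a median of 13 CpG and 54.0% GC, the 74 not called had 21 and 60.3%, and the 9 that rose had 20 and 58.7%. Untreated level was not held equal in these medians.

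The word ACTACA was found in a larger share of members' windows than of others, given without a test. Both strands were searched, and the longer word, ACTACA followed directly by ATTCC, known from binding sites of the Zfp143 protein, contains it. ACTACA was found in 24.2% of 227 windows of members, against 10.9% of 9554 windows of non-Zfp genes above the floor and 10.3% of all 32851 windows of this length. The longer word was found in 3.52%, 0.733% and 0.286% of the same windows. These words and CCGGAAGT were chosen after results were known, and a match is a description and not a binding site. Of the 54 members with ACTACA in a window, 37 fell and 1 rose with LPS, with a median of -0.54. The members with a window but without the word had a median of -0.35. Of all 186 members with a window 103 fell, beside 6.69% of all genes. Untreated level and place in a neighbour run were not held equal in this comparison.

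The 8 members with the longer word were Zfp1, Zfp58, Zfp93, Zfp108, Zfp128, Zfp180, Zfp692 and Zfp933. Of these, 5 fell and 0 rose with LPS in the limma fit, against 103 falls among the 186 members with a window and 6.69% of all genes. The median change of the 8 was -0.69, against -0.41 for members with a window but without the longer word. With 8 genes, whether the word goes with falls was not tested. Zfp108 and Zfp58 are printed with Zfp128 because all 3 windows hold this word, in neighbour runs on chromosomes 7 and 13.
Zfp108 (chr7:24254544-24254843, plus strand): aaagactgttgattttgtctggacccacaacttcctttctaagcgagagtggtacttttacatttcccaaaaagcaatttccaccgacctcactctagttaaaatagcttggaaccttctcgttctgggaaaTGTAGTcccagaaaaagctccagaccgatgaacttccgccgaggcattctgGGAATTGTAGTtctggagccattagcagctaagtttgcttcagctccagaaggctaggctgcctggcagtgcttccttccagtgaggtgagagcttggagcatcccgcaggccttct
Zfp58 (chr13:67500473-67500772, minus strand): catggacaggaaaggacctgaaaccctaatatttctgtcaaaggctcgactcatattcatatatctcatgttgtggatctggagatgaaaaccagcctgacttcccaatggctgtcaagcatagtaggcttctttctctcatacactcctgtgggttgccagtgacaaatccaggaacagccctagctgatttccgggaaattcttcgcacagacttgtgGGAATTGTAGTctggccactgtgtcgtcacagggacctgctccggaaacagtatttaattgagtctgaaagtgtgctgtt
The cyclic AMP response element TGACGTCA was found in 3.52% of members' windows, 3.21% of non-Zfp windows and 1.79% of all windows, and its shorter form TGACG, which overlaps it, in 34.8%, 32.5% and 20.8%. An NF-kB site was found in 14.1%, 15.9% and 13.2%, and the ETS word CCGGAAGT in 10.1%, 8.93% and 3.89%. For these 4 words the members' shares lay close to those of non-Zfp genes above the floor. The NF-kB word is the degenerate kappa B consensus.

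A small group of members went the other way with LPS. Of the 11 that rose, 3 did so at least 2-fold: Zfp719, Zfp131, which encodes a factor with a BTB domain, and Zfp263, which encodes a factor with SCAN and KRAB domains. Zfp719 was at 7.35, 7.38, 7.31 and 7.47 untreated, 9.39, 9.49 and 9.41 with LPS, and 8.92, 8.92, 9.04 and 9.22 with LPS+PGE. The LPS arrays lay above all others. It rose by 2.05 ± 0.08 with LPS (4.14-fold, limma adjusted p = 2.52e-09) and by 1.65 ± 0.07 with LPS+PGE (adjusted p = 6.31e-09).

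Zfp131 was at 8.17, 8.26, 8.33 and 8.34 untreated, 9.92, 10.18 and 9.87 with LPS, and 10.20, 9.93, 9.97 and 10.18 with LPS+PGE. The treated groups overlapped each other and both lay above all untreated arrays. It rose by 1.71 ± 0.10 with LPS (limma adjusted p = 9.35e-08) and differed by 0.08 ± 0.10 between LPS+PGE and LPS (adjusted p = 0.54). Zfp263 was at 9.17, 9.23, 9.19 and 9.37 untreated, 10.72, 10.79 and 10.49 with LPS, and 10.47, 10.20, 10.28 and 10.40 with LPS+PGE, a rise of 1.43 ± 0.09 with LPS (adjusted p = 3.17e-07).

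The smaller rises with LPS were those of Zfp703 (0.73), Zfp658 (0.62), Zfp622 (0.61), Zfp516 (0.54), Zfp275 (0.54), Zfp800 (0.48), Zfp869 (0.40) and Zfp281 (0.35). Zfp622 encodes a factor in maturation of the large ribosomal subunit, and Zfp281 a transcription factor known from pluripotent cells. Zfp622 was at 9.09, 9.13, 9.14 and 9.10 untreated, 9.72, 9.65 and 9.79 with LPS, and 9.35, 9.46, 9.39 and 9.39 with LPS+PGE. Its 3 groups did not overlap, with the LPS+PGE arrays between the others.

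**Figure D3:**
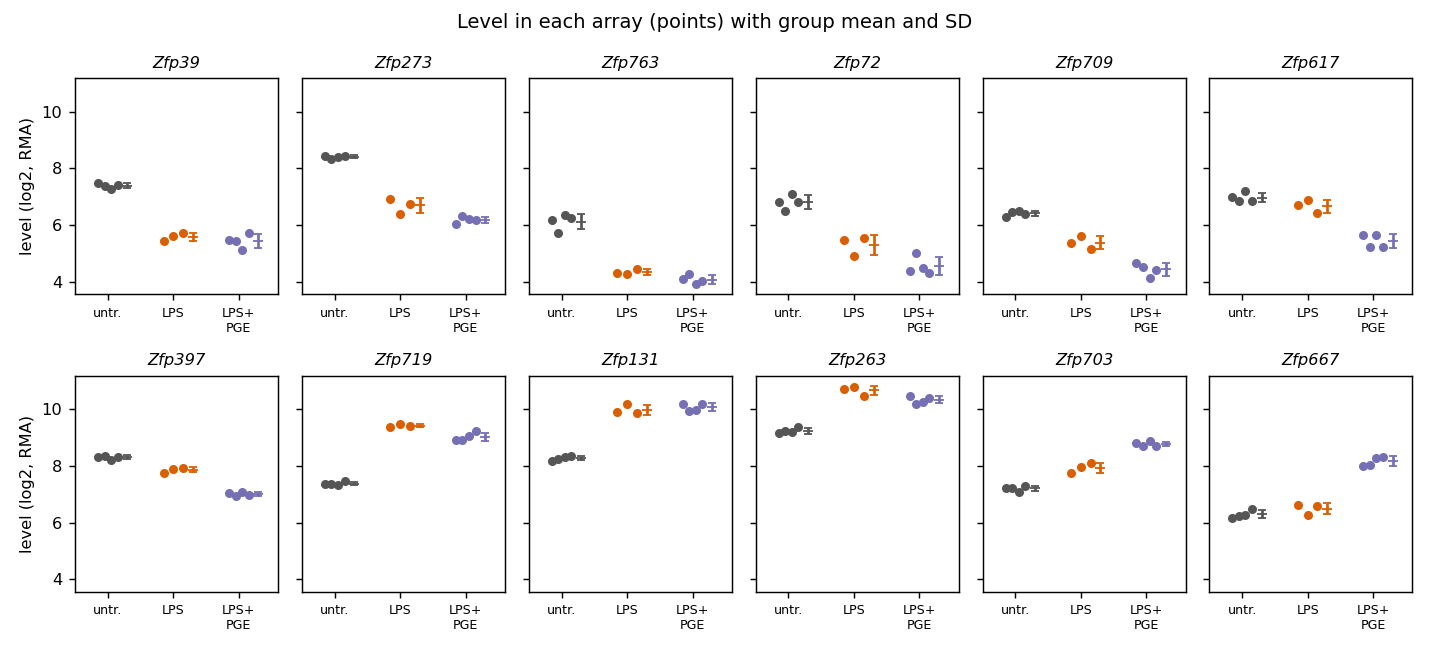
Level of 12 Zfp genes in each array (points, log2 RMA value) with the group mean and SD beside them, for untreated (n = 4), LPS (n = 3) and LPS+PGE (n = 4). Zfp39, Zfp273, Zfp763 and Zfp72 drop with LPS, and Zfp709 drops at both steps. Zfp617 and Zfp397 each drop more from LPS to LPS+PGE than from untreated to LPS. Zfp719, Zfp131 and Zfp263 are high in both treated groups, and the Zfp667 points with LPS+PGE lie above those of both other groups.

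The question in the second comparison is the state of the family after LPS and PGE together. It shares the untreated arrays with the first, so its values are given beside those above and not as separate evidence. With LPS+PGE, 186 of 224 members fell and 11 rose in the limma fit, beside 17.9% of all genes that fell and 13.8% that rose. The median change was -0.71 (61.0% of the untreated signal), with quartiles of -1.15 and -0.34 and a range of -2.27 to 1.86. The LPS+PGE arrays lay wholly below the untreated arrays for 191 members, beside 21.4% of all genes. At least 2-fold changes were found for 72 members that fell, beside 1.11% of all genes, and 5 that rose, beside 1.86%.

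Genes of the same untreated level moved down here too, by less. Among non-Zfp genes of the same level 36.0% fell and 9.31% rose, with a median change of -0.15, so that the members' median lay 0.57 lower. With members chosen on untreated replicates 1 and 2 and compared with 3 and 4, 163 of 219 fell, beside 12.3% of all genes, and with the reverse choice 162 of 223 fell, beside 10.7%. The count of falls depended little on scaling: 170 under quantile normalization, beside 15.1% of all genes, 158 under cyclic loess, beside 10%, and 166 with equal array medians, beside 9.19%. The difference from genes of the same level was -0.54 under quantile normalization and -0.58 under cyclic loess. With equal array medians it was -0.57, but that setting shifts all genes of an array alike and gives no check of this difference. Of the Zfp genes below the floor 31 fell and 6 rose.

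Zfp72 had the largest measured fall of this comparison. With LPS+PGE 19 members, Zfp72, Zfp763, Zfp870, Zfp760, Zfp709, Zfp329 and Zfp128 among them, had a mean below 5, toward the lower quartile of all genes (4.00 to 4.05). Their folds may be lower bounds, and their order is uncertain. It was at 6.80, 6.51, 7.10 and 6.82 untreated, 5.48, 4.89 and 5.53 with LPS, and 4.38, 5.01, 4.49 and 4.30 with LPS+PGE. The highest LPS+PGE array overlapped the lowest LPS array, and both groups lay below untreated cells. It fell by 2.27 ± 0.18 with LPS+PGE (4.81-fold lower, limma adjusted p = 1.76e-06). The next were Zfp273 (-2.22), Zfp455 (-2.19), Zfp418 (-2.06), Zfp329 (-2.05), Zfp763 (-2.04), Zfp760 (-1.99), Zfp709 (-1.98), Zfp553 (-1.98), Zfp39 (-1.94), Zfp128 (-1.92) and Zfp870 (-1.90). Zfp189 fell by 1.86 ± 0.08, from 7.12 to 7.33 in untreated arrays through 5.71 to 5.89 with LPS to 5.24 to 5.51 with LPS+PGE.

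The third comparison asks what PGE adds to LPS, and the arrays that set the level floor are not in it. With LPS+PGE against LPS, 133 of 224 members fell and 3 rose in the limma fit, beside 12.9% of all genes that fell and 11.9% that rose. The median change was -0.32 (79.9% of the LPS signal), with quartiles of -0.49 and -0.18. A change of at least 2-fold was found for 1 member that fell (Zfp617), beside 0.149% of all genes, and for 1 that rose (Zfp667), beside 0.565%. The LPS+PGE arrays lay wholly below the LPS arrays for 132 members, beside 18.3% of all genes.

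Other genes of the same level also had lower values here, and the count moved with the scaling of the arrays. Of non-Zfp genes of the same untreated level 29.0% fell, with a median of -0.17, so that the members' median lay 0.15 lower. The lower quartile of all genes was 4.00 to 4.05 in the LPS+PGE arrays and 3.80 to 3.87 in the LPS arrays. The part of this difference between arrays in the calls was not tested apart from the rescalings that follow. Under quantile normalization 61 members fell and 7 rose, and 5.16% of all genes fell. Under cyclic loess the split was 70 to 6, beside 5.53% of all genes that fell, and with equal array medians it was 72 to 10, beside 3.83%.

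The equal medians raised the change of the median gene to 0.14 for LPS+PGE minus untreated and 0.15 for LPS+PGE minus LPS. The members' median relative to the median gene was -0.73 and -0.32 as deposited. Equal medians leave these differences unchanged by construction, because every gene of an array is shifted by the same amount. Relative to non-Zfp genes of the same level the median for LPS+PGE minus LPS was -0.17 with quantile normalization and -0.16 with cyclic loess. The 61, 70 and 72 falls under the 3 scalings held 60, 70 and 72 of the 133 falls found in the deposited values.

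Among the probe sets used, Zfp617 had the largest fall between LPS and LPS+PGE, although a second probe set of Zfp738, not used, gave -1.63. It was at 6.98, 6.85, 7.20 and 6.83 untreated, 6.69, 6.88 and 6.41 with LPS, and 5.65, 5.22, 5.64 and 5.21 with LPS+PGE. The LPS arrays overlapped the untreated ones, and the LPS+PGE arrays lay below both. It fell by 1.23 ± 0.15 from LPS to LPS+PGE (2.35-fold lower, limma adjusted p = 0.000234), while LPS minus untreated was -0.30 ± 0.15 (adjusted p = 0.216).

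Zfp715 and Zfp382 had the same course. Zfp715 was at 7.78, 7.78, 7.91 and 7.75 untreated, 7.96, 7.84 and 8.04 with LPS, and 7.07, 7.05, 7.24 and 7.11 with LPS+PGE. Zfp382 was at 7.73, 7.56, 7.78 and 7.63 untreated, 7.70, 7.59 and 7.96 with LPS, and 6.88 to 7.10 with LPS+PGE. In both the LPS+PGE arrays lay alone below the others. From LPS to LPS+PGE, Zfp715 fell by 0.83 ± 0.07 (limma adjusted p = 1.78e-05) and Zfp382 by 0.76 ± 0.09 (adjusted p = 0.000293), and neither was called for LPS minus untreated.

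Other members stepped down at both treatments. Zfp397 was at 8.31, 8.37, 8.20 and 8.33 untreated, 7.77, 7.91 and 7.92 with LPS, and 7.05, 6.95, 7.08 and 6.99 with LPS+PGE, with no overlap between the 3 groups. It fell by 0.44 ± 0.07 with LPS and by 0.85 ± 0.07 from LPS to LPS+PGE (limma adjusted p = 7.57e-06). Zfp709 was at 6.27, 6.46, 6.51 and 6.39 untreated, 5.38, 5.59 and 5.17 with LPS, and 4.67, 4.51, 4.11 and 4.42 with LPS+PGE, with falls of 1.03 ± 0.13 and 0.95 ± 0.13. The other named falls of this comparison were those of Zfp160 (-0.87), Zfp81 (-0.86), Zfp229 (-0.84), Zfp11 (-0.82), Zfp935 (-0.78), Zfp882 (-0.77) and Zfp951 (-0.75). All 12 passed under each of the 3 scalings as well.

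Zfp667 (also known as Mipu1) and Zfp703 rose from LPS to LPS+PGE. Zfp667, a KRAB zinc finger gene, was at 6.18, 6.25, 6.28 and 6.50 untreated, 6.63, 6.27 and 6.60 with LPS, and 7.98, 8.04, 8.29 and 8.33 with LPS+PGE. The LPS arrays overlapped untreated ones and the LPS+PGE arrays stood above both. It rose by 1.66 ± 0.12 from LPS to LPS+PGE (3.17-fold, limma adjusted p = 3.35e-06), and LPS minus untreated was 0.20 ± 0.12 (adjusted p = 0.323). Its promoter is shown because it is the member with the largest rise in this comparison.
Zfp667 (chr7:6286330-6286629, plus strand): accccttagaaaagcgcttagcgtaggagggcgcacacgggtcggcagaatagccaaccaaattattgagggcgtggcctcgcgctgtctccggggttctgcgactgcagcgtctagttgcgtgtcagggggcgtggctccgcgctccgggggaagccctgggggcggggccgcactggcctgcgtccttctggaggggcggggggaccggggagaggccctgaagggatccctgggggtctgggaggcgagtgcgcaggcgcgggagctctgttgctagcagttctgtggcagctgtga
This window holds 25 CpG dinucleotides and neither TGACGTCA nor ACTACA, which says only that these letters are not in it.

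Zfp703 encodes a corepressor of the NET family. It was at 7.22, 7.23, 7.07 and 7.30 untreated, 7.74, 7.96 and 8.09 with LPS, and 8.82, 8.70, 8.88 and 8.71 with LPS+PGE. The 3 groups formed separate steps upward, with a rise of 0.73 ± 0.09 with LPS (limma adjusted p = 0.000138) and of 0.85 ± 0.09 from LPS to LPS+PGE (adjusted p = 0.0001). Zfp64 was the third member that rose, by 0.30 ± 0.10, from 7.91, 7.76 and 8.06 to between 7.996 and 8.36. Its groups overlapped, and the limma adjusted p was 0.0475. Zfp462 and Zfp948 rose for LPS+PGE minus untreated (0.32 and 0.38), and for LPS minus untreated they were at 0.17 and 0.32 without being called. Whether their change differed between the treatments is given by LPS+PGE minus LPS, which was 0.15 and 0.05 and not called for either.

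In the deposited values 6 members rose with LPS and fell from LPS to LPS+PGE. Both calls use the same LPS arrays and are therefore not independent. They were Zfp719 (2.05 and -0.40), Zfp263 (1.43 and -0.33), Zfp658 (0.62 and -0.52), Zfp622 (0.61 and -0.32), Zfp800 (0.48 and -0.25) and Zfp869 (0.40 and -0.39). Each of the 6 falls missed the threshold under at least 1 scaling: Zfp719 with equal medians (limma adjusted p = 0.0513), Zfp263 with loess (0.107), Zfp658 with quantile (0.0953), Zfp622 with equal medians (0.0605), Zfp800 with loess (0.166) and Zfp869 with loess (0.0878). The Zfp263 fall was also lost without LPS replicate 1 (limma adjusted p = 0.0664), LPS replicate 2 (0.0752), LPS+PGE replicate 2 (0.0551) or LPS+PGE replicate 3 (0.0529). The other 5 kept their call with each array left out. No member met the reverse rule of a fall with LPS and a rise from LPS to LPS+PGE.

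Members with described roles outside KRAB repression are given as counts without a test. Of 10 members that act on RNA, ribosomes, ubiquitin or the spindle, 2 fell and 1 rose with LPS, with a median of -0.03, beside the 6.69% of all genes that fell. The 2 were Zfp207, a spindle assembly factor that binds Bub3 (-0.33 ± 0.08), and Zfp346, a double-stranded RNA-binding protein (-0.31 ± 0.08). Of 16 transcription factors without a KRAB box 1 fell and 4 rose, with a median of 0.02, which turned to -0.02 under quantile scaling and -0.01 with equal medians. The 1 that fell was Zfp410, the activator of the chromatin remodeller gene Chd4 (-0.50 ± 0.08), and the 4 that rose were Zfp131, Zfp703, Zfp516 and Zfp281. Of the 193 other members, 113 fell and 6 rose, with a median of -0.45. These groups were drawn up with the values known.

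With LPS+PGE, 5 of the 10 RNA and ribosome factors fell and 1 rose, and 6 of the 16 transcription factors fell and 4 rose, against 170 and 6 of the other 193, where 17.9% of all genes and 36.0% of non-Zfp genes of the members' level fell. Their medians were -0.19, 0.05 and -0.79. The split of the transcription factors depended on the scaling, at 5 falls and 5 rises with quantile normalization, 4 and 8 with loess and 4 and 7 with equal medians. The RNA and ribosome factors had 4, 3 and 4 falls, and the other members 156, 146 and 153, beside 15.1%, 10% and 9.19% of all genes. From LPS to LPS+PGE the falls and rises were 5 and 0, 5 and 2, and 121 and 1 as deposited, beside falls of 12.9% of all genes and 29.0% of those of the members' level. Under quantile, loess and equal-median scaling the RNA and ribosome factors had 2, 2 and 1 falls, and the other members 56, 65 and 69. The transcription factors then had 1 fall and 4 rises, 1 and 3, and 0 and 5. Of all genes 5.16%, 5.53% and 3.83% fell under the same scalings. For the 16 transcription factors the median of this last comparison was -0.10 as deposited but 0.03, 0.07 and 0.06 under quantile, loess and equal-median scaling. The splicing-associated factor Zfp638 was at 8.29, 8.30, 8.33 and 8.21 untreated, 8.33, 8.30 and 8.17 with LPS and 7.88, 8.07, 7.86 and 7.73 with LPS+PGE, below the other groups.

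Of the 5 KRAB factors with described targets, 3 fell with LPS and 5 with LPS+PGE, beside 6.69% and 17.9% of all genes. Among non-Zfp genes of the members' level 11.2% and 36.0% fell. Of the 193 other members 113 and 170 fell, so falls are not particular to these 5. Zfp809, which silences retroviral DNA in embryonic cells, was at 9.20, 9.08, 9.02 and 9.23 untreated, 8.66, 8.55 and 8.78 with LPS, and 8.16, 8.34, 8.03 and 8.17 with LPS+PGE, 3 steps without overlap. It fell by 0.47 ± 0.09 with LPS (limma adjusted p = 0.00305) and by 0.49 ± 0.09 from LPS to LPS+PGE (adjusted p = 0.00266). Zfp961 fell by 0.95 ± 0.08 and 0.51 ± 0.08 in the same comparisons. Zfp429 fell by 0.36 ± 0.08 with LPS. Zfp445, which helps to maintain imprints, and Zfp568, a repressor of a placental Igf2 transcript, were at -0.16 and -0.39 for LPS minus untreated, not called, and fell by 0.41 ± 0.08 and 0.55 ± 0.13 with LPS+PGE.

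The genes of the machinery that KRAB factors recruit were mostly not called with LPS. The list held 40 symbols, among which Tasor and Nsd2 also stood under the older names Fam208a and Whsc1, and 33 were measured. With LPS 1 of the 33 fell (Cbx1, an HP1 protein, -0.21) and 1 rose (Pphln1, of the HUSH complex, 0.19), and the median was -0.02. Of non-Zfp genes above the floor 9.80% fell and 10.1% rose, so few calls with LPS are not particular to this list. The limma adjusted p was 0.0492 for Cbx1 and 0.0424 for Pphln1. The falls and rises of the corepressors were 1 and 0 with quantile normalization, 0 and 3 with loess and 1 and 1 with equal medians. Trim28, the shared KRAB corepressor, was not called in any of the 3 comparisons. With LPS+PGE 17 fell and 0 rose, beside 32.1% of non-Zfp genes above the floor that fell. The median was -0.17, led by Daxx (-0.50), Atf7ip (-0.36) and Morc3 (-0.36). Under quantile, loess and equal-median scaling 12, 4 and 4 fell, beside 2228, 1338 and 1400 of the 9086 non-Zfp genes above the floor. From LPS to LPS+PGE 9 fell and 0 rose, beside 22.3% of non-Zfp genes above the floor that fell. Under the same scalings 4, 2 and 0 fell, beside 554, 588 and 524 of those non-Zfp genes.

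Other zinc finger families are given to show where the Zfp genes differ, as counts without a test, with the same level floor, above which 9.80% of non-Zfp genes fell and 10.1% rose with LPS. With LPS, 10 of 14 Zscan and Zkscan genes, whose proteins also carry C2H2 fingers, fell and 1 rose, with a median of -0.37 close to that of the Zfp members. Of 29 Zbtb genes, whose proteins join C2H2 fingers to a BTB domain, 12 fell and 6 rose (median -0.17). Of 11 Klf genes 3 rose and the others were not called (median 0.17). Of 14 Zc3h genes, with CCCH fingers that bind RNA, 3 rose and the others were not called, and of 16 Zdhhc palmitoyltransferase genes 4 fell and 0 rose. The Zcchc, Zfyve and Zmym genes had 1 of 10, 2 of 8 and 1 of 5 falls and no rise, and of 3 Ikzf genes 1 rose.

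With LPS+PGE 12 of 14 Zscan and Zkscan genes fell (median -0.66) and 21 of 29 Zbtb genes fell (median -0.40). So did 4 of 11 Klf, 6 of 14 Zc3h and 4 of 16 Zdhhc genes, beside 32.1% of non-Zfp genes above the floor. Of the Zcchc, Zfyve and Zmym genes 5 of 10, 5 of 8 (median -0.31) and 2 of 5 fell. No Ikzf gene was called. Under quantile, loess and equal-median scaling 4, 3 and 3 Zc3h genes, 2, 1 and 1 Zdhhc genes, 4, 3 and 4 Klf genes and 18, 17 and 19 Zbtb genes fell. The Zcchc genes then had 4, 2 and 3 falls, the Zfyve genes 5, 3 and 4 and the Zmym genes 1, 1 and 1. Of the 9086 non-Zfp genes above the floor 2228, 1338 and 1400 fell under these scalings. The steepest falls among these relatives were those of Zkscan8 (-1.69) and Zbtb26 (-1.58). Rises with LPS+PGE as deposited were 4 among Klf, 2 among Zc3h and 1 each among Zscan or Zkscan, Zbtb, Zcchc and Zdhhc genes. Of non-Zfp genes above the floor 8.58% rose. The largest rises in these families were those of Zc3h12c (2.92), Zc3h12a (2.74) and Klf4 (2.28). Klf4 also rose by 1.90 from LPS to LPS+PGE. The number of falls among Zscan and Zkscan genes was 10 or 11 with LPS and 11 or 12 with LPS+PGE under all 4 scalings. The median of the Zc3h genes with LPS+PGE was -0.12 as deposited but 0.02 under cyclic loess and 0.01 with equal medians.

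The members were also placed by gene order, from the RefSeq annotation of GRCm38.p6, among protein-coding genes tested. Chromosome 7 held 60 members, chromosome 17 held 28, chromosome 13 held 20 and chromosome 8 held 17. With LPS 17 of the 20 members on chromosome 13 fell (median -0.73) and 41 of the 60 on chromosome 7 (median -0.49). On chromosome 17 it was 15 of 28 (median -0.45) and on chromosome 8 it was 10 of 17 (median -0.57). On chromosomes 2 and 5, 4 of 11 and 3 of 11 fell. Over all chromosomes 119 of the 224 members fell, beside 6.69% of all genes. Untreated level was not held equal between chromosomes. Members that followed each other directly formed 15 runs of 3 or more (58 genes) and 22 pairs (44 genes), and 122 had no Zfp member beside them. Zfp genes below the floor did not count as neighbours.

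Members in runs fell with LPS in a larger share than those alone, given as a description because neighbours are related genes and not independent. With LPS 41 of 58 genes in runs fell (70.7%, median -0.56), 27 of 44 in pairs (61.4%, median -0.41) and 51 of 122 alone (41.8%, median -0.22). Their median untreated levels were 7.16, 7.01 and 7.81, and 11.4%, 11.8% and 10.9% of non-Zfp genes of those levels fell. Allowing up to 2 other genes between members gave 63 of 93 in runs and 31 of 93 alone. From LPS to LPS+PGE the shares of falls as deposited were 58.6%, 63.6% and 58.2%, with 30.3%, 30.7% and 27.8% of non-Zfp genes of those levels. This near equality did not hold under other scalings. There 22 of 58 genes in runs, 12 of 44 in pairs and 27 of 122 alone fell with quantile normalization. With cyclic loess 24, 17 and 29 fell, and with equal medians 25, 19 and 28. Of all genes 5.16%, 5.53% and 3.83% fell under these scalings.

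Runs differed among themselves in the deposited values. For comparison, 119 of 224 members and 6.69% of all genes fell with LPS, and 133 members and 12.9% of all genes fell from LPS to LPS+PGE. In the latter, falls of genes in runs went from 34 of 58 to 22, 24 and 25 under quantile, loess and equal-median scaling. The share of all genes that fell was then 5.16%, 5.53% and 3.83%. Counts by run under those scalings are not given. On chromosome 8, Zfp709, Zfp882, Zfp617 and Zfp961 formed a run in which 3 of 4 fell with LPS (median -0.76) and 4 of 4 fell from LPS to LPS+PGE (median -0.86, range -1.23 to -0.51). On the same chromosome the run of Zfp868, Zfp869 and Zfp866 held 1 fall and 1 rise with LPS (median 0.08). On chromosome 17 the 7 genes from Zfp51 to Zfp229 spanned -1.41 to 0.32 with LPS, with 4 falls, and 6 of the 7 fell from LPS to LPS+PGE. Its exception was Zfp948, at 7.93, 7.47, 7.76 and 7.58 untreated, 7.997 to 8.01 with LPS and 8.18, 7.94, 7.94 and 8.18 with LPS+PGE. The 3 genes from Zfp768 to Zfp764 on chromosome 7 fell with LPS (-0.66 to -0.50), and none of them was called from LPS to LPS+PGE.

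**Figure D4:**
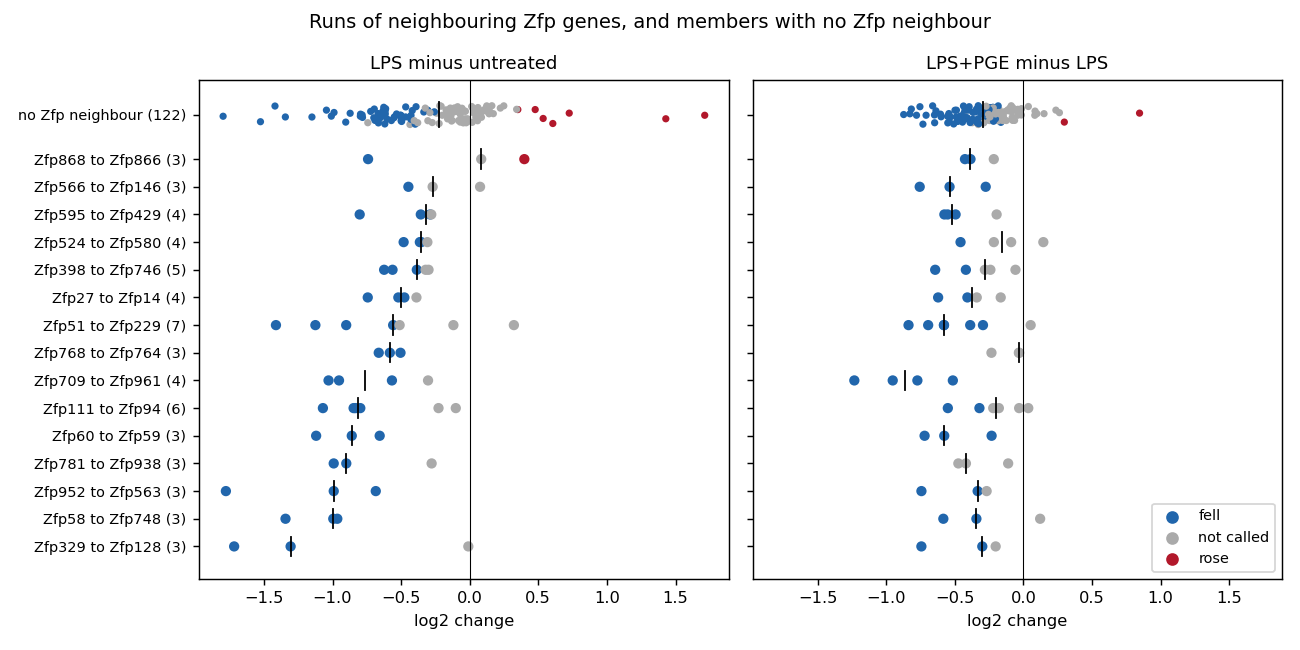
Log2 change of each member (points, coloured by call in the limma fit) in the 15 runs of neighbouring members and in the 122 members alone. The latter (top row, jittered, labelled no Zfp neighbour) have no other member directly beside them, and Zfp genes below the floor were not counted. The median of each row is a black bar. Left, LPS minus untreated; right, LPS+PGE minus LPS, where the run from Zfp709 to Zfp961 has the lowest median, -0.86.

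Related Zfp genes share sequence, and how far a probe set reads the transcript of a neighbour was not tested. There were 13 members with further probe sets, and in Zfp788 both hold identical values and give no check. For the other 12 members the change had the same sign in 12 of 13 further probe sets with LPS, 13 of 13 with LPS+PGE and 12 of 13 from LPS to LPS+PGE, and 7 of the 13 lay below the floor. The median size of the difference between probe sets of a gene was 0.08, 0.18 and 0.25. Zfp60 gave -1.12 and -1.03 with LPS. The largest disagreement with LPS was in Zfp330, at -0.08 for the brighter probe set and 0.54 for a second one at an untreated level of 4.76. The largest from LPS to LPS+PGE was in Zfp738, at -0.64 for the brightest probe set, -1.63 for a second one above the floor (6.81 untreated) and -0.38 for the third.

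The 5 non-Zfp genes whose pattern was most like the mean of the members over the 11 arrays were Zscan12 (Pearson r = 0.995), Exo5 (0.993), Fancl (0.992), Prmt5 (0.991) and Arhgap30 (0.990). The 11 arrays fall into 3 treatment groups, so these values describe likeness of group means more than of single arrays. Zscan12, another C2H2 zinc finger gene just below the level floor, was at 5.56 ± 0.04 (SD, n = 4) untreated, 4.80 ± 0.06 (SD, n = 3) with LPS and 4.25 ± 0.04 (SD, n = 4) with LPS+PGE.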

How the data were processed

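Values were taken as deposited by the authors, 1 log2 value per probe set and array (1.20 to 13.81). The log2 scale was inferred from that range and from RMA, which the submitters' processing notes name together with Partek, Affymetrix Power Tools and R 2.13.1, giving no roles. The deposited arrays do not share 1 distribution: their medians over all genes run from 5.79 to 6.01. Which normalization was applied is not stated in words, and changes are relative to the scaling as deposited. Of 12 arrays made, 11 were used, 1 LPS array having been left out by the authors. Of 35309 probe sets, 21143 carried 1 gene symbol, 1870 several and 12296 none, and the highest-mean probe set per gene gave 18755 genes. Levels of different genes come from different probes and serve only to place genes in level bins. limma 3.58.1 (R 4.3.3) fitted 1 mean per group over the 11 arrays (8 residual and 3.77 prior degrees of freedom), two-sided, with Benjamini-Hochberg adjustment over all genes and a threshold of 0.05, and tested on simulated data. Tables and figures used Python 3.11.15, pandas 2.3.3 and matplotlib 3.10.9.

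Non-Zfp genes of the same untreated level were compared in fixed bins, with no drawing and no p. Genes were named by rule: per comparison the 12 largest falls and 6 largest rises among called members without overlap, members with opposite calls, genes at the floor, and genes of the lists. Genes named for a role, a run or a further probe set outside that rule were chosen with their values known. The members and lists were chosen with earlier results of these data known. Array number limits the precision. The genome build of the deposited files is not stated in the sources at hand, gene order and promoters are RefSeq's, and protein features were not analysed here. Alternatives were other normalizations, variance models, floors, probe set rules, a replicate block and each array left out.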

Additional observations from a re-analysis of the deposited data

How the results depend on the processing

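No called result changed direction. Counts of falls stayed within 1.5 times for LPS and LPS+PGE against untreated under every normalization, variance model, probe set rule and floor run, except floor 7 and the 2-fold threshold. For LPS+PGE minus LPS, quantile normalization gave 61 falls, 7 rises, a median of -0.20 and 6.47% falls among non-Zfp genes of the same level. Cyclic loess gave 70, 6, -0.21 and 9.20%, and equal array medians 72, 10, -0.17 and 9.67%. For LPS+PGE minus untreated the medians were -0.57, -0.59 and -0.59 under these settings, with 22.2%, 19.3% and 21.5% falls at the same level, and loess gave 17 rises. Leaving out dim genes (190 members) gave medians of -0.30 for LPS and -0.62 for LPS+PGE against untreated, and 6 rises for LPS+PGE minus LPS. A floor of 7 (148 members) gave 71 and 119 falls and medians of -0.28 and -0.61, and a floor on the mean of all 11 arrays (187 members) medians of -0.30 and -0.62. No floor (312 genes) gave medians of -0.31 and -0.55, with 17 rises for LPS+PGE against untreated and 9 for LPS+PGE minus LPS. At 2-fold, falls and rises were 24 and 3, 72 and 5, and 1 and 1.

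With each array left out in turn, falls ranged from 96 to 120 for LPS, 177 to 189 for LPS+PGE and 95 to 130 for LPS+PGE minus LPS, rises from 11 to 12, 11 to 12 and 2 to 4, and medians from -0.45 to -0.35, -0.74 to -0.70 and -0.35 to -0.28. The smallest count of the third came without LPS replicate 3. The replicate block gave 111 falls and 12 rises, 186 and 13, and 125 and 4. Same-numbered arrays correlated at -0.02 to 0.21 over 10 pairs, 7 of them over 0.1, and 11 of 11 arrays were closest to their own number, a hint from the data and not the design, so the numbers were not taken as pairing. The wider neighbour gap and the same-level differences under each scaling were chosen after seeing the data.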
